A study of Mus musculus with 2 samples.

Results

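Non-classical monocytes were sought in 2 single-cell RNA libraries of leukocytes sorted from mouse AT3 tumors, by the transcripts of Ace, Adgre4 and Ear2. A member was a barcode with 500 to 7500 detected genes and at most 15% of its unique molecular identifiers (UMIs, each standing for 1 captured transcript) from mitochondrial genes. It held at least 3 UMIs of Ace, Adgre4 and Ear2 together, at most 1 UMI of Cd3d, Cd3e and Cd3g, and fewer than 30 UMIs of C1qa, C1qb and C1qc. The rule took 64 of 6363 kept barcodes, 23 of 3565 from Pgd fl/fl mice and 41 of 2798 from mice that were Pgd fl/fl and carried LysM Cre. These are called the control and the Cre library below.

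The study asked what loss of 6-phosphogluconate dehydrogenase (6PGD, encoded by Pgd), an enzyme of the oxidative pentose phosphate pathway, does in tumor myeloid cells. Both genotypes carried floxed Pgd alleles (Pgd fl/fl, labelled WT), and the other library (labelled 6PGDKO) came from mice that also carried LysM Cre, strain B6.129P2-Lyz2tm1(cre)Ifo/J, in which Cre is inserted into the lysozyme gene Lyz2 and is active in monocytes, macrophages and neutrophils at varying efficiency. Untreated female mice, drawn from an age range of 6 to 12 weeks, received 500000 cells of the AT3 mammary carcinoma line in the mammary fat pad and gave tumors on day 30. Cells of 10 mice per genotype were pooled, tagged with a genotype-specific oligonucleotide and combined before loading, so each genotype is 1 library with no replicate, and a genotype effect cannot be tested and cannot be told apart from other differences between the 2 pools of mice. The methods describe a sort for live CD45+ cells, whereas the labels name both CD45+ cells and live CD11b+ cells. The libraries held 3728 and 3014 barcodes with 27245625 and 28827045 UMIs in the order control and Cre, which is kept throughout. The kept barcodes had a median of 5554 and 7926 UMIs, and no barcode was shared. The study analysed fewer cells per library than its stated filters leave here. Every 95% interval below is exact and covers counting error only.

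Non-classical monocytes are the monocytes with little surface Ly6C that crawl along the inner wall of blood vessels and clear debris. They arise largely from classical, Ly6C-high monocytes, and depend on the nuclear receptor Nr4a1 and on C/EBPβ, encoded by Cebpb. Ace encodes angiotensin-converting enzyme, Adgre4 an adhesion G protein-coupled receptor also known as F4/80-like receptor, and Ear2 a secreted ribonuclease of the eosinophil-associated family, whose members are close copies, so that counting can split their reads.

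The 64 barcodes were not of a single kind, and 41 of them carried Ace or Adgre4 without the epithelial genes. The split that follows was chosen after the counts had been seen. A group of 41 barcodes, 14 and 27 by library, held at least 1 UMI of Ace or Adgre4 and fewer than 5 UMIs of the epithelial genes Krt8, Krt18 and Epcam. In these monocyte-like barcodes Ptprc, which encodes the pan-leukocyte protein CD45, had a UMI in 14 of 14 and 27 of 27 barcodes. Csf1r, the receptor for the growth factor that monocytes need to survive, was detected in all 41 as well, with 1 to 7 UMIs in the control library and 1 to 14 in the Cre library. Plac8, a gene abundant in monocytes of the blood, had 7 to 74 UMIs per barcode in the former and 0 to 69 in the latter, where 25 of 27 barcodes held it. Ace was detected in 12 of 14 and 23 of 27 of them, Adgre4 in 12 and 20, and Ear2 in 7 and 13. For comparison, 0.389% and 0.896% of T cells had a UMI of Ace, 0.222% and 0.244% one of Adgre4, and 0.111% and 0.326% one of Ear2, at a median depth of 5180 and 6054 UMIs against 6066.5 and 5838. The T cells were chosen with fewer than 3 UMIs of these genes together, so their low rates are in part fixed by that choice. All of these values chose the barcodes or were read in the cells so chosen, and are descriptions.

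The other 23 barcodes went against the label. A set of 12 keratin barcodes, 5 and 7 by library, held 57 and 74 UMIs of Krt8, 73 and 111 of Krt18 and 66 and 83 of Epcam, of which the monocyte-like barcodes together held 1 UMI, of Epcam. Ptprc was absent from all 5 keratin barcodes of the control library and had 7 UMIs in 2 of the 7 of the Cre library. They had entered by Ace alone, with 3, 3, 4, 5 and 31 UMIs in the control library and 3, 3, 4, 5, 5, 9 and 11 in the Cre library. Their most abundant distinguishing genes were of mammary epithelium and its tumors: Igfbp5 with 755 and 743 UMIs, Spp1 with 587 and 229, Lcn2 with 329 and 223, and the milk protein gene Csn3 with 373 and 198. They were also deep, with medians of 14642 and 15012 UMIs against 6066.5 and 5838 in the monocyte-like barcodes. The share of their oligonucleotide tags that belonged to their own library was lower, with medians of 72.9% and 86.7% against 94.2% and 95.1%. One keratin barcode of the Cre library, with 33519 UMIs, also held 6 UMIs of Ptprc, 10 of Csf1r and 499 of Cd74. No doublet caller was run, and the part of doublets in these barcodes was not tested.

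The remaining 11 barcodes, 4 and 7 by library, held no UMI of Ace or Adgre4 and fewer than 5 of the epithelial genes, and entered by Ear2 alone, with 3, 4, 5 and 26 UMIs in the control library and 3, 3, 5, 5, 7, 14 and 19 in the Cre library. Ptprc was detected in 4 of 4 and 6 of 7 of them. The macrophage list as a whole stood at 1754 and 1736 CPM (UMIs scaled to a total of 1000000) in them and at 2200 and 1786 CPM in the monocyte-like barcodes. Single genes differed more, and were chosen after their values were seen. Lpl, lipoprotein lipase, had 84 and 32 UMIs where the monocyte-like barcodes had 0 and 1, Mrc1, the mannose receptor, had 11 and 30 against 2 and 4, and Fn1, fibronectin, a gene of the classical monocyte list, had 68 and 81 against 6 and 26. Retnla, a gene of macrophages that respond to interleukin-4, had 1044 and 364 UMIs, with 778 of the 1044 in 1 barcode. The Ear2-only barcodes were not uniform. In the Cre library 1 barcode with 1 Retnla UMI held 26 UMIs of Ly6c2 and 7 of Plac8. Another with 0 of Retnla held 411 of Cd74. In the monocyte-like barcodes all 630 Retnla UMIs lay in 1 barcode of the Cre library. It also held 10 UMIs of Ear2, 27 of Lyz1 and 1 of Adgre4 but none of Plac8, Ace or Ceacam1. Apart from the Adgre4 UMI it resembled the Ear2-only barcodes rich in Retnla. Plac8 had 2 and 8 UMIs in the Ear2-only barcodes, Nr4a1 had 4 and 2, and Spn, which encodes CD43, had 1 and 0. Eosinophil markers (Siglecf, Prg2, Epx, Ear6, Il5ra and Ccr3) had 0 UMIs in all 64 barcodes. The alveolar macrophage list (Siglecf, Marco, Pparg, Car4, Ear1 and Krt79) held 9 and 10 UMIs over all 64. The Ear2-only barcodes had 1 and 1 of these and the monocyte-like barcodes 5 and 9, all of Pparg. These 11 barcodes are left without a cell type name. In C1q-rich macrophages, outside the rule, 0.698% and 4.49% of cells had a UMI of Ear2.

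**Figure D1:**
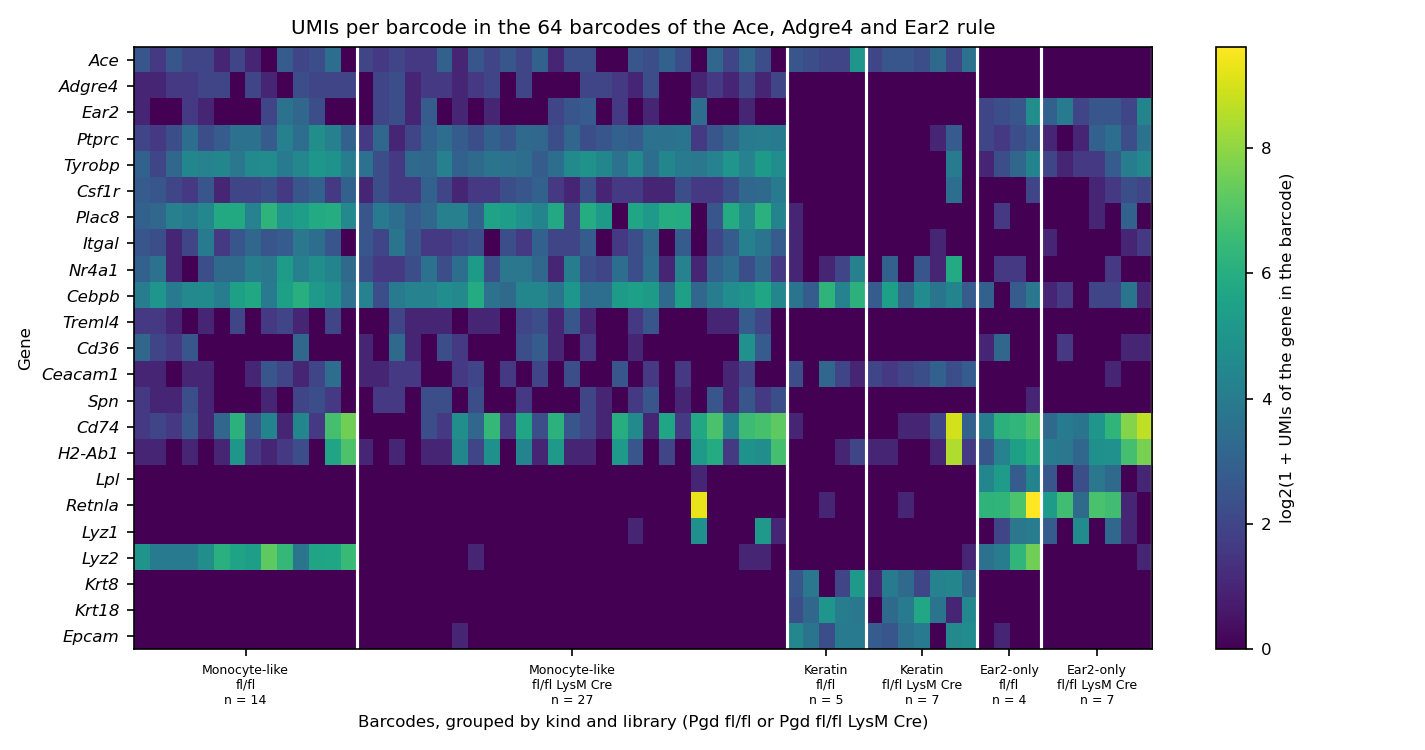
UMIs per barcode, as log2(1 + UMIs) in color, of 23 genes (y axis) in each of the 64 barcodes (x axis), grouped by kind and by library. The 41 monocyte-like barcodes share Ptprc and Csf1r. The 12 keratin barcodes hold at least 5 UMIs of Krt8, Krt18 and Epcam together, and the 11 Ear2-only barcodes hold no UMI of Ace or Adgre4.

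At the edge of the rule, 6 and 8 barcodes entered with exactly 3 UMIs of Ace, Adgre4 and Ear2, and 7 and 10 stayed out with 2 UMIs. Plac8 was detected in 3 and 5 of those just inside and in 5 and 4 of those just outside, and Csf1r in 3 and 6 against 5 and 5. Keratin barcodes made up 2 and 2 of those inside and 1 and 0 of those outside.

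Markers of other cell types were counted in the 41 monocyte-like barcodes. The macrophage list held 191 and 291 UMIs and had a UMI in all 14 and all 27 barcodes, with 166 and 246 of the UMIs from Apoe, an apolipoprotein gene that monocytes also express. The neutrophil list showed 2 of 7 genes with 9 and 15 UMIs, and its defining genes S100a8, Ly6g and Retnlg were at 0. The endothelial list held 6 and 18 UMIs with Cdh5 and Emcn at 0, and the dendritic cell list 13 and 5, where 12 of the 13 were Ccr7 UMIs of 1 control barcode. T cell genes (Cd3d, Cd3e, Cd3g, Trac, Trbc2 and Lck), 3 of which the rule limited, held 2 and 5 UMIs and B cell genes 4 and 0. The natural killer list held 1 UMI in the control library and 167 in the Cre library. All 167 lay in the deepest monocyte-like barcode (14282 UMIs), with 156 UMIs of Gzma and 78 of Ccl5.

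The upstream sequences of the 3 genes of the rule are shown because the rule rests on them, and because Nr4a1 and C/EBPβ are the factors these cells are known for. Each is the 250 bases before the start of the gene as RefSeq gives it on GRCm38.p6, 5′ to 3′ on the strand of the gene. Capitals mark a match to the C/EBP letters TTGCNNAA, searched on both strands, where the match in Adgre4 is read on the opposite strand. Adgre4 lies at chr17:55749734-55749983 (plus strand), Ear2 at chr14:44102404-44102653 (plus strand) and the first start of Ace at chr11:105967698-105967947 (plus strand).
Adgre4: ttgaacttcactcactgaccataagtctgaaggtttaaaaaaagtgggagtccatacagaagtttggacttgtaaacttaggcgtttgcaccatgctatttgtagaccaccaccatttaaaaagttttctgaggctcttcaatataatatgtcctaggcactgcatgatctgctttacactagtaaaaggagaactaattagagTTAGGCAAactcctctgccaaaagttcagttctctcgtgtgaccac
Ear2: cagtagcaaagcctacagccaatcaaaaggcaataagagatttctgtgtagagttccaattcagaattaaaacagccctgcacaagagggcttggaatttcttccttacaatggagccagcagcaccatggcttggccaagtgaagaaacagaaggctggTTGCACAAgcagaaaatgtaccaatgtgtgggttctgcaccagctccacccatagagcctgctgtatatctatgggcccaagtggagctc
Ace: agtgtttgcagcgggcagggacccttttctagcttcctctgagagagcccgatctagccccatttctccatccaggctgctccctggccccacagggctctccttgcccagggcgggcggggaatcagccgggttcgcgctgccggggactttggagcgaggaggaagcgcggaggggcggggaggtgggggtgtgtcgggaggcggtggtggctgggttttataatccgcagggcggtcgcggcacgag
Among the 20 genes that stood highest in the monocyte-like barcodes over classical monocytes (described next), 18 had an upstream sequence. The C/EBP letters stood in 4 of them, Ear2, Pparg, Adgre4 and Fgd4 (22.2%), against 10.8% of all 27025 genes. Ear2 and Adgre4 belong to the rule, and without the genes of the rule the letters stood in 2 of 15. The Nr4a1 letters AAAGGTCA stood in 0 of the 18 against 1.55% of all genes. The KLF letters CCNCACCC stood in Heg1, Pparg, Tcf7l2 and Spn (22.2%) against 16.6% of all genes. A match is a description of the letters and not a bound site.

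To place the barcodes among tumor myeloid cells, they were compared within each library with Ly6c2 Chil3 monocytes, 31 and 48 cells with at least 3 UMIs of Ly6c2 and Chil3 together, genes of classical monocytes. Levels are CPM, the UMIs of a gene in the summed barcodes scaled to a total of 1000000, and a log2 ratio is the monocyte-like level over that of the comparator. Genes of the non-classical program that the rule had not used stood higher in the monocyte-like barcodes of both libraries. Of 21 such genes, 20 had enough UMIs for a ratio, and all 20 were higher in both libraries, with medians of 2.38 and 1.58 on the log2 scale against -0.04 and -0.05 for 3552 genes, of which 28.7% were higher in both. At least 2-fold higher in both libraries were 11 of the 20, against 4.03% of all genes. Over all 64 barcodes the count was 14 of 20 with medians of 1.26 and 0.89, and 9 were at least 2-fold higher against 6.65% of all genes, while 4.58% of all genes were at least 2-fold lower. The monocyte-like barcodes were chosen as cells, so these counts describe them and are not a test.

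Ceacam1, a cell adhesion molecule, stood at 311 and 203 CPM against 11.5 and 5.45 in Ly6c2 Chil3 monocytes, log2 ratios of 4.75 and 5.22. The keratin barcodes, deeper by their medians, held Ceacam1 as well, so it did not set the monocyte-like barcodes apart from them. Those of the control library had 0, 1, 3, 4 and 8 UMIs each. Those of the Cre library had 2, 3, 3, 4, 4, 6 and 7. Treml4, a receptor that binds dying cells, stood at 207 and 246 CPM against 19.2 and 13.6. Cd36, a scavenger receptor for oxidized lipids, stood at 299 and 399 CPM against 3.84 and 10.9. Fabp4, a fatty acid carrier, had 9 and 31 UMIs against 2 and 0. The keratin barcodes held no UMI of Treml4, Cd36 or Fabp4. These markers were far from universal within the monocyte-like barcodes. Ceacam1 had a UMI in 10 of 14 (71.4%) and 14 of 27 (51.9%), Treml4 in 9 (64.3%) and 17 (63.0%), Cd36 in 5 and 12, and Fabp4 in 4 and 8. With every barcode thinned to 3000 UMIs, which left out 1 barcode of the Cre library, Ceacam1 was seen in 57.1% and 38.5% of them, in 6.45% and 4.17% of Ly6c2 Chil3 monocytes and in 0.189% and 0.558% of T cells, which should lack it.

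Genes of adhesion and movement separated the barcodes from classical monocytes as well. Itgal, the alpha chain of the integrin LFA-1 on which patrolling depends, stood at 933 and 773 CPM against 108 and 120. Spn stood 2.66 and 3.73 higher on the log2 scale, and S1pr5, a sphingosine-1-phosphate receptor that non-classical monocytes need to leave the marrow, had 9 and 13 UMIs against none. Itga4 was 2.66 and 2.45 higher and Itgb2 1.72 and 1.10 higher. The adhesion list as a whole was higher in both libraries for 9 of 12 genes, with medians of 1.37 and 0.92.

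Among transcription factors, Nr4a1 stood at 2073 and 1295 CPM against 607 and 491, log2 ratios of 1.77 and 1.40, and its transcript was found in 13 of 14 and 27 of 27 monocyte-like barcodes. Cebpb was 1.10 and 0.88 higher, Pou2f2 2.73 and 4.30, Tcf7l2 3.17 and 2.83, and Pparg 3.91 and 3.34. Klf2 differed by 0.16 and 0.49 only. Gsr, which encodes glutathione reductase, stood at 564 and 417 CPM against 177 and 172. Cx3cr1, the fractalkine receptor and a classical marker of these cells, was 3.23 higher in the control library but 0.94 higher in the Cre library. Of its 17 UMIs in the Cre library, 6 lay in the barcode that held 156 of Gzma.

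Several programs of classical monocytes were lower, where Ly6c2 and Chil3 themselves had chosen the comparator. Ly6c2 was -2.28 and -1.19, Ccr2, the receptor that draws monocytes out of the marrow, -0.93 and -1.26, and F13a1 -3.03 and -1.78. Of the 11 genes of the classical monocyte list 7 were lower and 2 higher in both libraries, 3 of them at least 2-fold lower, with medians of -0.69 and -0.79. The list includes Ly6c2 and Chil3, so these counts and medians are in part fixed by the choice of the comparator. Ly6c2 had a UMI in 5 of 14 and 13 of 27 monocyte-like barcodes, and 1 barcode of the Cre library held 44 of that library's 106 UMIs. Interferon-stimulated genes were lower in both libraries for 16 of 18, with medians of -1.52 and -0.75, among them Isg15 at -3.42 and -2.61 and Ifit3 at -3.09 and -3.15. All 7 MHC class II genes, which present antigen to CD4+ T cells, were lower, with medians of -1.26 and -1.26. Inflammatory mediators were lower for 13 of 17 and Fc receptors for 4 of 6. The chemokine genes Cxcl9 (-4.88 and -3.13) and Cxcl16 (-5.29 and -2.02) were among the 20 lowest genes. Of all genes, 34.5% were lower in both libraries and 4.67% were at least 2-fold lower in both.

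Against C1q-rich macrophages (573 and 512 cells), 19 of 21 independent non-classical genes were higher in both libraries, with medians of 2.46 and 2.23 against 0.73 and 0.28 for 10437 genes, of which 51.5% were higher and 20.1% lower in both. The exceptions were Cx3cr1, at 288 and 104 CPM against 258 and 238, and Fcgr4, which was lower in the control library only. All 11 classical monocyte genes were higher, all 9 macrophage genes were lower with medians of -3.29 and -3.47, and 7 of 7 MHC class II genes were lower with medians of -2.43 and -1.98. C1q genes were limited by the rule, so the macrophage medians are in part fixed by it.

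**Figure D2:**
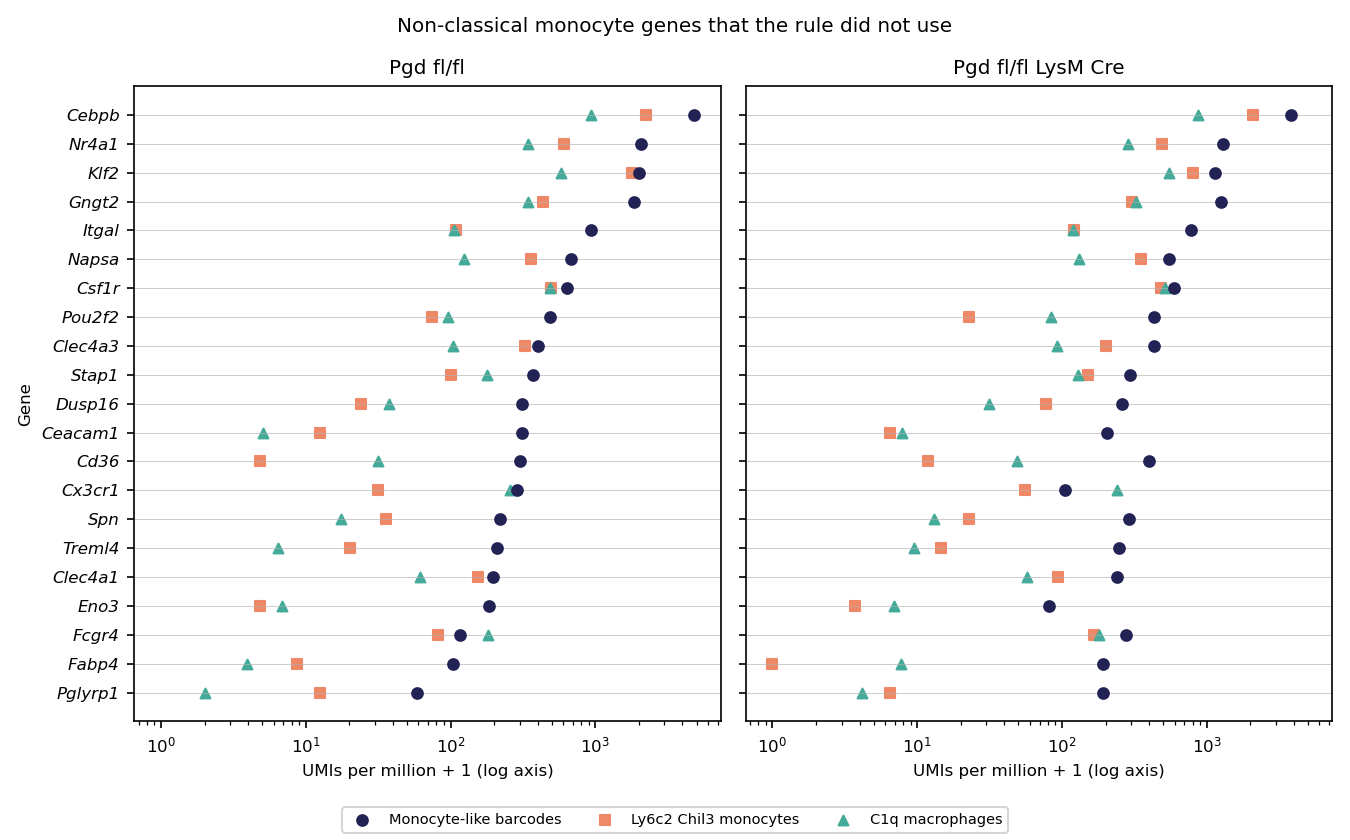
Levels (CPM + 1, log axis) of 21 genes of non-classical monocytes that the rule did not use, in monocyte-like barcodes, Ly6c2 Chil3 monocytes and C1q-rich macrophages, with 1 panel per library. Ceacam1 stood at 311 and 203 CPM in monocyte-like barcodes and at 11.5 and 5.45 in Ly6c2 Chil3 monocytes.

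The share of the rule's barcodes was larger in the Cre library. They made up 0.645% of kept barcodes in the control library (95% Clopper-Pearson interval 0.409 to 0.966) and 1.47% in the Cre library (1.05 to 1.98). B cells made up 15.3% and 1.32% of the same libraries, and without them the shares were 0.762% (0.484 to 1.14) and 1.48% (1.07 to 2.01). The monocyte-like barcodes made up 0.393% (0.215 to 0.658) and 0.965% (0.637 to 1.40), or 0.464% (0.254 to 0.777) and 0.978% (0.645 to 1.42) without B cells. The keratin barcodes made up 0.140% and 0.250%, the Ear2-only barcodes 0.112% and 0.250%, and the Ly6c2 Chil3 monocytes 0.870% and 1.72%. With 1 pooled library per genotype, a difference between genotypes cannot be told apart from one between the 2 pools of mice or their sorts.

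The targeted gene was checked next. Pgd had 17 UMIs (88.1 CPM) in the 23 barcodes of the control library and 9 (26.2 CPM) in the 41 of the Cre library, a log2 ratio of Cre over control of -1.75 (95% interval -3.10 to -0.50). In the monocyte-like barcodes it had 12 UMIs in 5 of 14 barcodes and 3 UMIs in 3 of 27, or 138 and 18.4 CPM, a ratio of -2.91 (-5.37 to -1.02). With every barcode that held a UMI of Cd3d, Cd3e, Cd3g, Cd79a, Cd79b, Ms4a1, Ncr1 or Klrb1c left out, the value over the remaining barcodes was -0.61. Of the 9 UMIs in the Cre library, 6 lay in keratin barcodes, where the control library had 3. Ly6c2 Chil3 monocytes gave 31 and 5 UMIs (-3.13, interval -4.85 to -1.75), C1q-rich macrophages 730 and 178 (-1.98, -2.22 to -1.74) and T cells, in which LysM Cre is largely inactive, 320 and 303 (0.16, -0.07 to 0.39). The sources used here do not give the exons that the floxed allele loses, so part of the remaining tags may lie outside the deleted stretch.

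Lyz2, the gene that carries Cre, served as a further check of the labels. It had 976 UMIs in the rule's barcodes of the control library and 5 in those of the Cre library, a log2 ratio of -8.44. The monocyte-like barcodes of the control library held 12 to 147 UMIs each, with a median of 44, and those of the Cre library held 0 or 1, with 3 of 27 above 0. The groups did not overlap. The Ear2-only barcodes showed the same split, with 11, 16, 79 and 182 UMIs against 0 or 1. In T cells, which do not make lysozyme, Lyz2 stood at 102 and 6.04 CPM. The paralog Lyz1 had 0 UMIs in the monocyte-like barcodes of the control library and 65 in 4 barcodes of the Cre library, 36 of them in 1 barcode, and counting can split reads between such closely related genes.

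**Figure D3:**
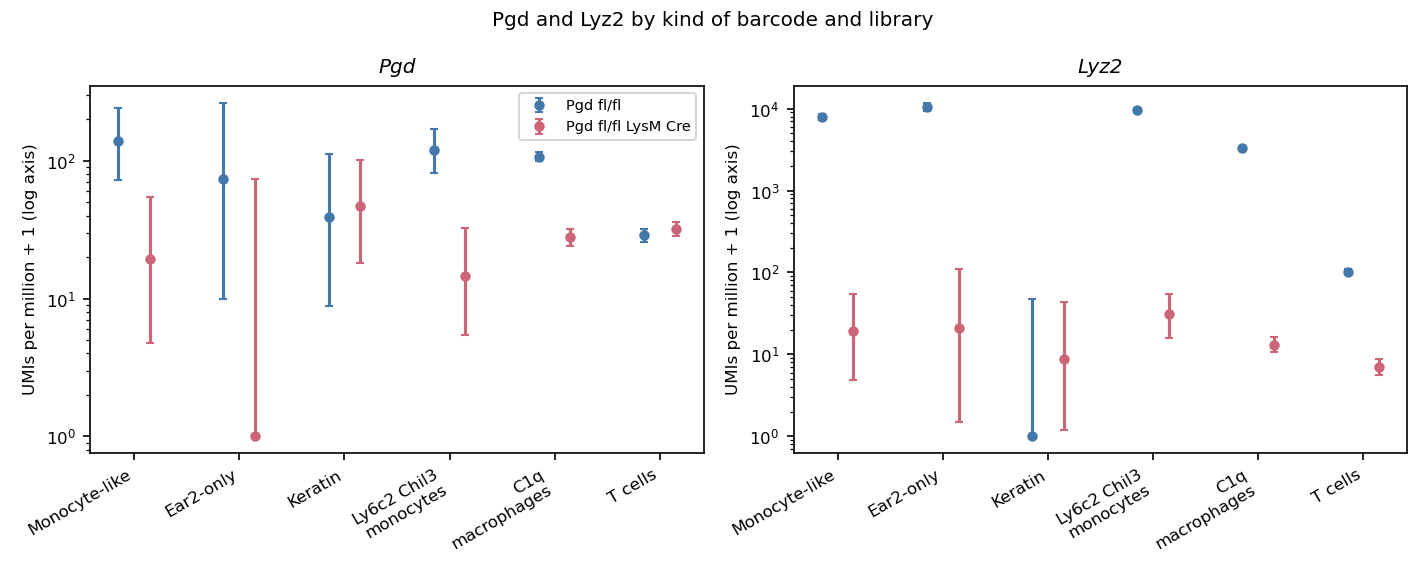
Levels (CPM + 1, log axis) of Pgd and Lyz2 in 6 kinds of cells, by library, with exact Poisson 95% intervals of the summed UMIs. In monocyte-like barcodes Pgd stood at 138 CPM in the control library and 18.4 in the Cre library, and Lyz2 at 7924 and 18.4.

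Between genotypes, the counts past a fold of 2 set the background for the members. Of 2562 genes with at least 30 UMIs over all 64 barcodes, 163 (6.36%) were at least 2-fold higher in the Cre library and 76 (2.97%) at least 2-fold lower, around a median log2 ratio of 0.02. Of 1184 such genes in the monocyte-like barcodes, 61 (5.15%) were higher and 39 (3.29%) lower, around a median of 0.00, with 600 of the 1184 above 0. Ratios below are of Cre over control, in the monocyte-like barcodes unless all 64 are named, and none has a replicate check.

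The genes that define the cells went in both directions. Of 20 independent non-classical genes with at least 30 UMIs, 8 were higher and 12 lower with a median of -0.22, and over all 64 barcodes 9 were higher and 12 lower with a median of -0.14. With barcodes that held a lymphoid UMI left out of the 64, that median was 0.41. In the monocyte-like barcodes 2 were at least 2-fold higher and 1 at least 2-fold lower. Cx3cr1 had 25 UMIs in 11 of 14 barcodes and 17 in 9 of 27 (-1.46, interval -2.44 to -0.52), and in Ly6c2 Chil3 monocytes the value was 0.83 (-0.42 to 2.22). Of the 17 UMIs, 6 lay in the barcode that held 156 of Gzma. Gngt2, a G protein subunit gene of these monocytes, was -0.57 (-0.87 to -0.26). Ceacam1 at -0.62 (-1.40 to 0.17), Treml4 at 0.24, Spn at 0.40 and Itgal at -0.27 differed little or had intervals that held 0. The adhesion list had 4 of 11 genes higher and a median of -0.27, and -0.13 over all 64. Fcgr4, which encodes an activating receptor for IgG that is high on non-classical monocytes, had 10 UMIs in 7 of 14 barcodes and 45 in 18 of 27 (1.26, 0.25 to 2.42). Pglyrp1, a peptidoglycan-binding protein gene, had 5 UMIs in 2 barcodes and 31 in 14 (1.72, 0.35 to 3.44).

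The factors on which the cells depend stood lower in the Cre library. Nr4a1 ranged from 0 to 39 UMIs with a median of 10 in the monocyte-like barcodes of the control library, and from 1 to 37 with a median of 4 in those of the Cre library. The ranges overlapped almost whole, and the ratio of the sums was -0.68 (-0.97 to -0.38), or -0.37 over all 64 barcodes. Klf2, a factor of quiescence and of response to shear, was -0.83 (-1.13 to -0.52), and in Ly6c2 Chil3 monocytes -1.16 (-1.38 to -0.95). Cebpb was -0.33 (-0.51 to -0.15). Irf8, a factor of monocyte and dendritic cell fate, went the other way with 14 and 54 UMIs (1.04, 0.17 to 2.0). Over the list of factors and survival genes, 2 of 10 were higher and 8 lower with a median of -0.25. Over all 64 barcodes 5 of 13 were higher and 8 lower with a median of -0.19, which was 0.13 without barcodes that held a lymphoid UMI. The direction was not particular to these barcodes. In Ly6c2 Chil3 monocytes 8 of 12 genes of the list were lower with a median of -0.24. In C1q-rich macrophages 12 of 15 were lower with a median of -0.08, whereas in T cells 11 of 15 were higher with 0.51. Klf4 was -0.12 in monocyte-like barcodes and 0.59 over all 64, where the keratin barcodes held 5 and 150 of its UMIs. Immediate early genes, which respond to handling as well as to signals, included Ier2 at -1.11 (-1.54 to -0.68), Egr1 at -1.08 (-1.74 to -0.43), Fos at 0.00 and Dnajb1 at 1.48 (0.61 to 2.46). Of the 100 Ier2 UMIs of the control library 49 lay in 1 barcode, and the highest barcode of the Cre library held 15 of 87. The whole list of 12 had 4 higher and 8 lower with a median of -0.06, and -0.10 over all 64 barcodes.

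All 4 Fc receptor genes with enough UMIs were higher, with a median of 0.84, and with 0.88 over all 64 barcodes. They were higher in T cells as well, 6 of 6 with a median of 0.91, and the part of free RNA was not tested. Fcgr2b, the inhibitory receptor, had 14 and 49 UMIs (0.90, 0.02 to 1.87), Fcgr3 14 and 45 (0.78, -0.12 to 1.76), and Fcer1g, the shared signaling chain, 189 and 439 (0.31, 0.06 to 0.56). In Ly6c2 Chil3 monocytes 5 of 6 Fc receptor genes were higher with a median of 0.54, and in C1q-rich macrophages 2 of 6 with a median of -0.06.

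The pathway around Pgd itself was sparse. Of 9 pentose phosphate genes 2 had enough UMIs, Tkt, transketolase, with 50 and 89 (-0.08) and Taldo1, transaldolase, with 56 and 119 (0.18). G6pdx, the entry enzyme, had 6 and 9 UMIs and Pgls 13 and 15. NADPH users showed no common direction. The glutathione and NRF2 list had 4 of 9 genes higher and a median of -0.03, with Gsr at -0.44 (-0.99 to 0.13), Gpx1 at 0.03, Txn1 at 0.81 (0.18 to 1.47) and Prdx1 at 0.79 (0.05 to 1.59). Slc7a11, which imports cystine, had 1 UMI in the control library and 20 in the Cre library. The NADPH oxidase genes had a median of -0.20 with 2 of 5 higher, Cybb at -0.20 and Ncf4 at 1.51 (0.23 to 3.06). In glycolysis 7 of 9 genes were higher with a median of 0.24, and none had an interval above 0. Over all 64 barcodes 9 of 14 were higher with a median of 0.10, which was -0.40 with those thinned to 3000 UMIs. In Ly6c2 Chil3 monocytes 11 of 15 genes of the list were higher (median 0.18). In C1q-rich macrophages 17 of 17 were higher (0.34) and in T cells 17 of 18 (0.41). Hk2, a hexokinase gene, had 2 UMIs in 1 barcode and 25 in 11, too few for a ratio, while Gapdh was -0.43. Among genes of lipid handling 2 of 7 were higher with a median of -0.33, with Cd36 at 0.41, Plin2 at -0.29 and Fabp5 at -1.47 (-2.10 to -0.85). Over all 64 barcodes the medians were -0.03 for the glutathione and NRF2 list, 0.06 for the NADPH oxidase list and -0.22 for lipid handling.

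Interferon-stimulated genes were higher on balance, 8 of 10 with a median of 0.72, and 9 of 12 with 0.45 over all 64 barcodes. Cxcl10, a chemokine gene induced by interferon, had 0 UMIs in the control library and 31 in the Cre library, spread over 7 of 27 barcodes with 14 in the highest. Gbp2 had 6 UMIs in 3 barcodes and 34 in 7 (1.59, 0.33 to 3.14) and Ifi204, of a family of close copies, 19 and 62 (0.80, 0.04 to 1.62), whereas Ifitm3, the deepest gene of the list with 328 and 630, was 0.03. In Ly6c2 Chil3 monocytes 6 of 18 genes of the list were higher with a median of -0.38, and in C1q-rich macrophages 13 of 18 with a median of 0.17.

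Chemokine and cytokine genes were carried by few barcodes each. Ccl2 had 12 UMIs in 3 of 14 barcodes and 70 in 12 of 27 (1.64, 0.74 to 2.66), Il1rn, the interleukin-1 receptor antagonist gene, had 2 UMIs and 32 in 7 barcodes (3.09, 1.12 to 6.20), and Cxcl16 had 1 and 30 in 7 barcodes (4.0, 1.41 to 9.35). In T cells, which are not the usual source of any of the 3, the values were 2.89, 0.66 and 1.34 in the same order, from 3.74, 26.7 and 62.8 CPM in the control library, and the part of free RNA in the monocyte-like values was not tested. Il1b had 139 UMIs in 10 of 14 barcodes, with a median of 5 and up to 40 in a barcode, and 334 in 21 of 27, with a median of 3 and up to 74, a ratio of 0.36 (0.07 to 0.65). In the other direction stood Cxcl2, with 34 UMIs in 3 barcodes and 18 in 6 (-1.83, -2.74 to -0.96), and Ccl4, with 70 in both libraries (-0.91, -1.41 to -0.41), where 63 of the 70 in the control library lay in 1 barcode. The list of inflammatory mediators split evenly, with 6 of 12 higher and a median of -0.11, and 9 of 16 with 0.10 over all 64 barcodes. Of 10 genes of suppression and checkpoints, 5 had enough UMIs over all 64 barcodes, and 3 of these were higher with a median of 0.71, which was 0.037 without the Ear2-only barcodes. In the monocyte-like barcodes 2 of the 10 had enough UMIs, 1 higher and 1 at least 2-fold lower, with a median of -0.39.

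Ranked by size among genes with a UMI in at least 10 barcodes of the higher library, Basp1, a membrane-associated signaling protein gene, led with 1 and 34 UMIs (4.18, 1.60 to 9.52). Hpgd, which inactivates prostaglandins, followed with 0 UMIs and 33 UMIs in 10 barcodes. Set against the limit of 3 counts that 0 counts allow, counted per library, its level was at least 5.86-fold higher in the Cre library, while the exact interval of its log2 ratio began at 2.17. Further down stood Card19 (5 and 47 UMIs), Malt1 (12 and 66), S100a10 (13 and 70), Hsph1 (8 and 45) and Runx3 (6 and 32). The lowest after Lyz2 were Mxd1, a partner of MAX that opposes MYC, with 39 and 19 UMIs (-1.95, -2.82 to -1.12), Ppp1r15b (19 and 11), Fam49a (30 and 18), Cx3cr1, Ccdc88a (42 and 29) and Hspa5, the chaperone BiP of the endoplasmic reticulum, with 115 and 85 (-1.34, -1.77 to -0.93). Basp1, Hpgd, Lyz2, Mxd1 and Fam49a were also among the 12 highest or lowest over all 64 barcodes. Others there came from the other kinds: of 1058 Igkc UMIs in the Cre library, 1047 lay in 1 keratin barcode, and Tsc22d1, at 4.21 over all 64, was -0.17 in the monocyte-like barcodes.

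**Figure D4:**
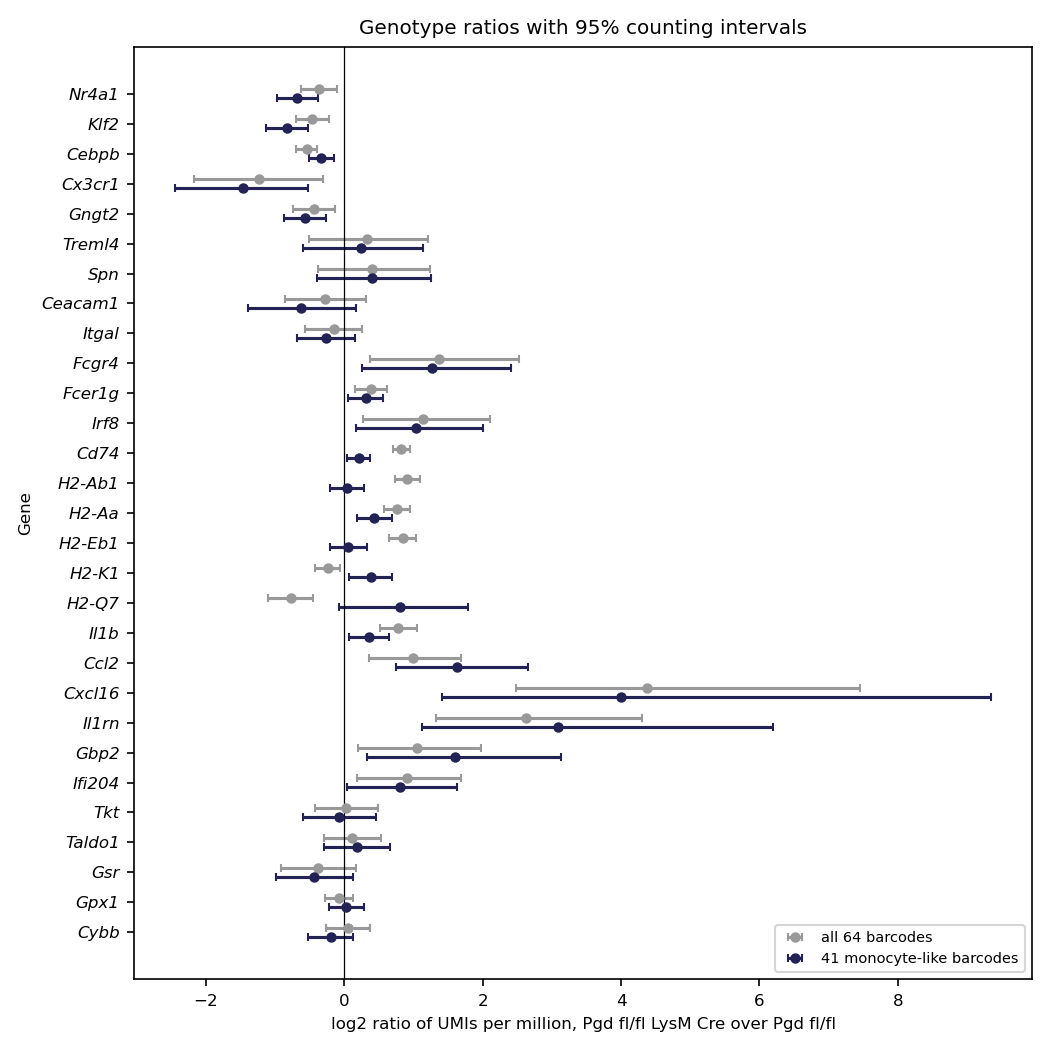
Log2 ratio of Cre over control (x axis) for 29 genes (y axis), with exact 95% counting intervals, over all 64 barcodes (grey) and over the 41 monocyte-like barcodes (dark). Nr4a1, Klf2 and Cx3cr1 lie below 0 and Fcgr4 and Irf8 above 0 in both, while Cd74 moves from 0.82 over all 64 to 0.21 in monocyte-like barcodes.

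MHC class II values depended on which barcodes were counted. Over all 64 barcodes 4 of 6 were higher in the Cre library with a median of 0.79, with Cd74, the invariant chain, at 709 and 2227 UMIs (0.82, 0.70 to 0.94), H2-Ab1 at 0.91, H2-Aa at 0.76 and H2-Eb1 at 0.84. In the monocyte-like barcodes the same 4 of 6 directions held but the median was 0.05, with Cd74 at 431 and 936 UMIs (0.21, 0.04 to 0.38), H2-Ab1 at 0.03, H2-Aa at 0.43 (0.18 to 0.69) and H2-Eb1 at 0.06. H2-DMb1, which helps load peptide, was -1.17 (-2.0 to -0.36). A single monocyte-like barcode of the control library held 185 of the 431 Cd74 UMIs, so the Cd74 ratio rests in part on it. Of the Cd74 UMIs of the control library, the monocyte-like barcodes held 431, the keratin barcodes 1 and the Ear2-only barcodes 277, and of those of the Cre library 936, 511 and 780. A single keratin barcode held 499 of the 511.

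Within the monocyte-like barcodes Cd74 was uneven. It ran from 1 to 185 UMIs with a median of 5 in the control library and from 0 to 147 with a median of 8 in the Cre library, so the ranges overlapped. At least 50 UMIs were found in 3 of 14 and 9 of 27 barcodes, and fewer than 10 in 9 of 14 and 14 of 27. The 9 include the barcode with 630 Retnla UMIs, at 53 of Cd74. They also include the barcode with 156 Gzma UMIs, which at 147 set the maximum of the Cre library. In the control library the barcode with the Ccr7 UMIs set the maximum, at 185. It also held 121 UMIs of H2-Ab1, 22 of Plac8 and 3 of Adgre4. It held none of Ace, Ceacam1, Treml4, Spn or Itgal. The class II ratios of the monocyte-like barcodes were not recomputed without it. The 3 highest barcodes held 84.2% of the Cd74 UMIs in the control library and 39.6% in the Cre library. In T cells, which make little of it, Cd74 stood at 1507 and 2939 CPM (0.96), against 4964 and 5745 CPM in the monocyte-like barcodes, and the part of free RNA was not tested. Of the class I genes 5 of 5 were higher with a median of 0.13, led by H2-Q7, whose reads close copies may share, at 0.81 (-0.08 to 1.79) and H2-K1 at 0.38 (0.07 to 0.70), both of which were below 0 over all 64 barcodes, at -0.78 and -0.24.

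**Figure D5:**
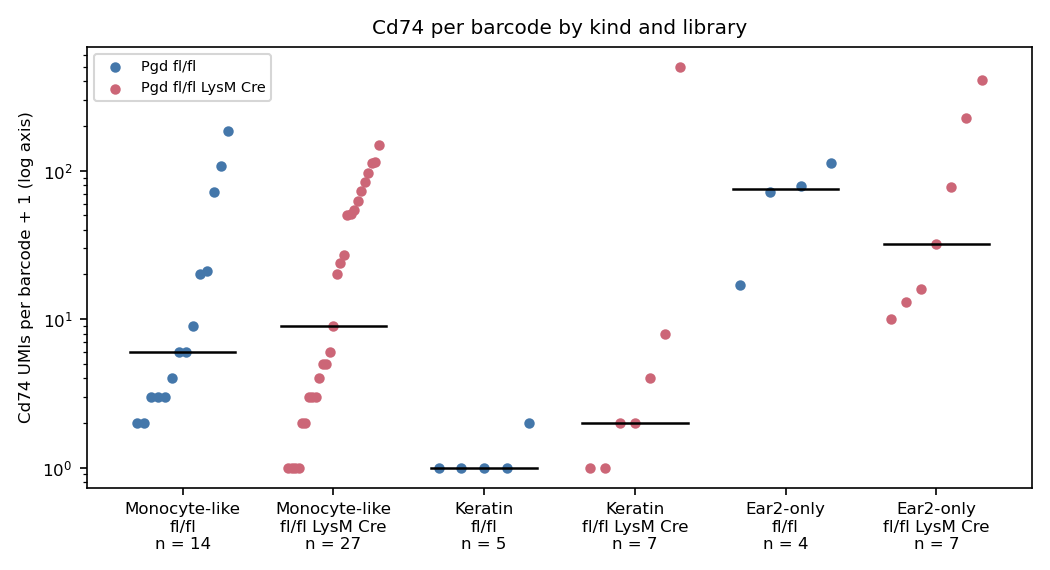
UMIs of Cd74 + 1 (y axis, log scale) in each of the 64 barcodes, by kind and library, where black lines mark medians. In monocyte-like barcodes the medians are 5 UMIs in the control library and 8 in the Cre library, and the Ear2-only barcodes of the Cre library reach 411.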

How the data were processed

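Tagged leukocytes of AT3 tumors of both genotypes were combined before loading on droplets, and the data stand as 2 libraries, 1 per genotype. The authors deposited UMI counts per gene and barcode, unnormalized, with counts of 12 oligonucleotide features beside 32285 gene features. The submitters' processing notes name Cell Ranger 6.1.2, Seurat and mm10. Oligonucleotide features stayed out of gene sums. Cells were filtered and chosen as stated at the opening of the results, UMIs were summed per library and kind of cell, and sums were scaled to CPM. Comparator cells were chosen by raw UMIs. Ly6c2 Chil3 monocytes held at least 3 UMIs of Ly6c2 and Chil3, with at least 1 of Ly6c2 and 1 of Csf1r. They held at most 1 UMI each of the Cd3 genes, of B cell genes, of Ncr1 and Klrb1c, and of Siglech. T cells held at least 3 UMIs of the Cd3 genes, and B cells at least 3 of Cd79a, Cd79b and Ms4a1. These 3 kinds held fewer than 30 C1q UMIs and fewer than 3 of Ace, Adgre4 and Ear2. C1q-rich macrophages held at least 30 C1q UMIs and at most 1 Cd3 UMI. Clopper-Pearson, Poisson and conditional binomial 95% intervals were computed in Python 3.11.15 with numpy 2.4.6, scipy 1.17.1, pandas 2.3.3 and matplotlib 3.10.9, by code tested on simulated data. With 1 library per genotype no test was made. Genes entered a genotype ratio with at least 30 UMIs over both libraries. Members, gene lists and rules were chosen with earlier results of these data known. Named genes were those of the lists, the 12 highest and 12 lowest between genotypes (a UMI in at least 10 barcodes of the higher library) and the 20 highest and 20 lowest against Ly6c2 Chil3 monocytes (at least 50 CPM). Genes named for the keratin and Ear2-only barcodes were chosen after their values were seen. Upstream sequences were taken from RefSeq, GRCm38.p6. No doublet caller was run. Depth limits most ratios: 14 and 27 monocyte-like barcodes gave 86826 and 162924 UMIs.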

Additional observations from a re-analysis of the deposited data

Results flagged for a closer look

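MHC class II genes stood in opposite directions in the chosen barcodes and in C1q-rich macrophages. The median log2 ratio of the Cre library (Pgd fl/fl LysM Cre) over the control library (Pgd fl/fl) was 0.79 over all 64 barcodes and -0.42 in the macrophages, where 7 of 7 genes were lower. There is 1 library per genotype, and the difference was not tested. The monocyte-like barcodes alone gave 0.05 and Ly6c2 Chil3 monocytes -0.09.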

How the results depend on the processing

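No paired analysis was possible because there is 1 library per genotype, and for the same reason no replicate could be left out. Values are for all 64 barcodes unless stated, ratios are log2 of Cre over control, and the cause of each shift was not tested. Settings that drop the keratin or the Ear2-only barcodes were chosen after seeing the data. The control share of 0.645% became 0.337% with at least 5 UMIs of Ace, Adgre4 and Ear2, 0.367% with all barcodes thinned to 3000 UMIs, 0.999% with own oligonucleotides of at least 90%, and 0.393% without keratin and Ear2-only barcodes. The Cre share of 1.47% became 0.965% at 5 UMIs and 0.965% without both kinds. The Pgd ratio of -1.75 was -3.13 without keratin barcodes. The 163 genes at least 2-fold higher of 2562 tested became 28 of 835 when thinned, 61 of 1184 without both kinds, 100 of 1537 without keratin barcodes and 96 of 1795 at 3 rule UMIs per 10000, and the 76 lower became 17, 39 and 41 in the first 3 of these. With a minimum of 10 UMIs per gene they were 800 and 460 of 6112, and with 100 UMIs 12 and 8 of 718. The median of independent non-classical genes over Ly6c2 Chil3 monocytes, 1.26 in the control library, was 1.79 at 5 UMIs, 1.75 per 10000, 2.02 by oligonucleotides, 1.78 with barcodes weighted alike, 2.02 without keratin barcodes and 2.38 without both kinds, where the Cre value of 0.89 became 1.58. List medians between genotypes also moved. MHC class II, 0.79, was 0.45 at 5 UMIs, -0.010 by Ace and Adgre4 of at least 2 UMIs without Ear2 (H2-Eb1 -0.14), 0.55 per 10000, 0.48 thinned, 0.98 with C1q under 10 UMIs, 0.55 with no cell filter, 0.26 by oligonucleotides, 0.32 without keratin barcodes, 0.047 without both kinds and 0.47 weighted alike. At 5 UMIs the non-classical list was -0.40, transcription factors -0.49, glutathione -0.46 and immediate early genes 0.055. With any lymphoid UMI excluded, the non-classical list was 0.41, transcription factors 0.13, adhesion 0.14, glycolysis -0.24, suppression genes -0.24 and lipid handling 0.38, with Gngt2 at 0.054 and Apoe at 0.58. By oligonucleotides the non-classical list was -0.44, transcription factors -0.48, adhesion -0.64, NADPH oxidase -0.46, glycolysis 0.58, MHC class I 0.66, inflammatory mediators -0.25, immediate early genes -0.28 and lipid handling -0.56. With no cell filter the non-classical list was -0.42, adhesion -0.37 and Fc receptors 0.35. Glycolysis was -0.40 and immediate early genes 0.036 when thinned. Without keratin barcodes glycolysis was 0.70, MHC class I 0.41 and immediate early genes -0.24. Without Ear2-only barcodes suppression genes were 0.037 and immediate early genes 0.028. Lipid handling was 0.20 and immediate early genes -0.20 by Ace and Adgre4 alone, and suppression genes were 0.073 per 10000. Single genes also turned, with values over all 64 barcodes of 0.59 for Klf4, -0.24 for H2-K1, -0.78 for H2-Q7, 0.49 for Atf3, 0.39 for Fcer1g, -0.49 for Socs3, -0.28 for Apoe, -0.83 for Cfp, 4.21 for Tsc22d1 and 4.89 for Igkc. Klf4 was -0.12 without keratin barcodes and -0.12 without both kinds, H2-K1 0.38 and 0.38, H2-Q7 0.44 and 0.81, and Atf3 -0.013 and -0.096, in that order. H2-K1 was 0.47, H2-Q7 0.91, Fcer1g -0.071 and Atf3 -0.14 by oligonucleotides. Fcer1g was -0.022, Socs3 0.69 and Atf3 -0.068 at 5 UMIs. Socs3 was 0.0012 and Tsc22d1 -0.17 without both kinds. Igkc was -1.98 without keratin barcodes and -1.66 per 10000. Cfp was 0.16 and Apoe 0.054 by Ace and Adgre4 alone, and Cfp 0.76 without Ear2-only barcodes and 0.68 without both kinds. Of 241 recomputed list medians 199 stayed within their spread. Scaling by the median ratio moved no list median or count beyond it. Depth left genes under 30 UMIs out of the genotype ratios.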
